A study of Homo sapiens with 12 samples.

Results

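The 10 genes described here encode Krüppel-like factors (KLF2, KLF3, KLF4, KLF5, KLF6, KLF7, KLF9, KLF10, KLF11 and KLF13) out of 19862 protein-coding genes of the RefSeq annotation of hg38. They were chosen from the family with peaks of these same data in view, and the overlapping REXO4 and RNaseH1 peaks at KLF2 were among the measured values they were selected on, so the peak counts below describe the genes and carry no test. All peaks in each gene and in the 5 kb on either side were taken, by an overlap of at least 1 bp. The peaks came from 2 lists, 1 per protein, made by Flag ChIP-seq in U2OS cells, a human osteosarcoma line. In 1 line a tet-on transgene expressed REXO4-D386A, a nuclease-dead form of the exonuclease REXO4. In the other it expressed RNaseH1-D210N, a nuclease-dead form of the enzyme that cuts RNA in RNA:DNA hybrids. The 12 libraries fall into 8 groups: each line was given 1 µg/ml doxycycline over roughly 60 h or left without it, with 2 Flag ChIP libraries and 1 input library per condition. Both lines carry a transgene, so no group without one was compared, and the labels do not say whether a line is a single clone. The labels and lists do not state which doxycycline condition or replicates each list rests on. Both lists hold 1 value per peak, so nothing below has a replicate error. The question of the study was whether the proteins bind R-loops, in which RNA pairs with 1 DNA strand and displaces the other.

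Krüppel-like factors are transcription factors that bind GC-rich and CACCC-type DNA motifs through zinc fingers at their C-terminal end. KLF2, KLF4, KLF5, KLF6 and KLF7 mostly act as activators, KLF3 as a repressor that recruits CtBP, and KLF9, KLF10, KLF11 and KLF13 as repressors that recruit SIN3A. Several of these genes respond quickly to serum, shear stress, hormones or TGF-β. R-loops in human cells are often found at GC-rich promoters of active genes.

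The promoter sequences below show what lay under or beside the peaks. Each window runs from 250 bases before to 50 bases after a RefSeq start (GRCh38.p14) and is printed 5′ to 3′ on the strand of the gene. Capitals mark the GC box GGGCGG or its reverse complement. KLF2 (chr19:16324576-16324875, plus strand) is shown because its window held a peak summit, the only one of the 13 windows in the promoter table for these genes to do so. The other windows were chosen after their values were seen. KLF4 (chr9:107489720-107490019, minus strand) and the KLF7 window that lay wholly in a peak (chr2:207166807-207167106, minus strand) belong to the genes with the highest RNaseH1 folds. KLF5 has a window without a peak (chr13:73054726-73055025, plus strand) and one with a peak (chr13:73058755-73059054, plus strand).
KLF2: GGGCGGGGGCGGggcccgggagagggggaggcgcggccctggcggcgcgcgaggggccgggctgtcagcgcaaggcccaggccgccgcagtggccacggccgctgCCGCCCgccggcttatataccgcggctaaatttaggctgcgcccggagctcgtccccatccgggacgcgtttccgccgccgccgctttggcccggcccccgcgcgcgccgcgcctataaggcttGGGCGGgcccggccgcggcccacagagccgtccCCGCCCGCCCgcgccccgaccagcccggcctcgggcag
KLF4: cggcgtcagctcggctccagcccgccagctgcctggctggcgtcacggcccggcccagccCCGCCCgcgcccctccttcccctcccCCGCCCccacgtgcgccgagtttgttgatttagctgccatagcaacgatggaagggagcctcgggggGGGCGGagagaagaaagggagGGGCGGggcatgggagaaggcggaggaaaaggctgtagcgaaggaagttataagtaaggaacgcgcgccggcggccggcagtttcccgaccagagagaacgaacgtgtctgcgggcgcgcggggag
KLF7: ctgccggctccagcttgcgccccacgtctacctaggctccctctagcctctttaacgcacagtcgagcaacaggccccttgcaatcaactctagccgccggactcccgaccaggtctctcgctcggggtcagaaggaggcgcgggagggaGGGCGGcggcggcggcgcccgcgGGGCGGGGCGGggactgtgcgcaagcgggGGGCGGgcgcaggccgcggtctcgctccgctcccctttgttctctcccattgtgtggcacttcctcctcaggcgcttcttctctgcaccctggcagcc
KLF5 upstream start: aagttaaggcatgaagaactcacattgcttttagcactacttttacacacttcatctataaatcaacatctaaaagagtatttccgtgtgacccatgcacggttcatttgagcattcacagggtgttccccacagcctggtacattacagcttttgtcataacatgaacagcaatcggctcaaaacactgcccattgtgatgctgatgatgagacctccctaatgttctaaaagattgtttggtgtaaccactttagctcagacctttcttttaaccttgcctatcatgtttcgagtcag
KLF5 internal start: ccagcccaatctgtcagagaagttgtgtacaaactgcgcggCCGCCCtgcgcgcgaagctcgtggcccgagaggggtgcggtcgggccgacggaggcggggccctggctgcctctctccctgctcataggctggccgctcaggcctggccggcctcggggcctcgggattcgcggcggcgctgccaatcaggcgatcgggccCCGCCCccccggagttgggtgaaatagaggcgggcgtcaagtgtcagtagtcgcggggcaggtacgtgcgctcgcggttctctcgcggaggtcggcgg

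RNaseH1 peaks lay at all 10 KLF genes, and REXO4 peaks at KLF2 and KLF3. The 10 windows held 24 RNaseH1 peaks and 2 REXO4 peaks. Of all 19862 protein-coding genes, 82.1% had an RNaseH1 peak in the same kind of window, and 84.3% of the 14383 genes whose length lay within the range of the KLF genes (3.86 to 109 kb) did. A count of 10 of 10 is thus near the background. A REXO4 peak lay at 6.16% of all protein-coding genes, and overlapping peaks of both lists at 4.86%. Nothing is read from the 2 of 10 KLF genes with a REXO4 peak, since the choice of genes used that peak list. For the other 8 KLF genes, the nearest REXO4 peak lay 357 kb from the gene at KLF7, 9705 kb at KLF9, and a median of 1359 kb away. The whole list holds only 1460 REXO4 peaks. The same distance over all protein-coding genes is not given here, so nothing is read from these gaps.

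**Figure D1:**
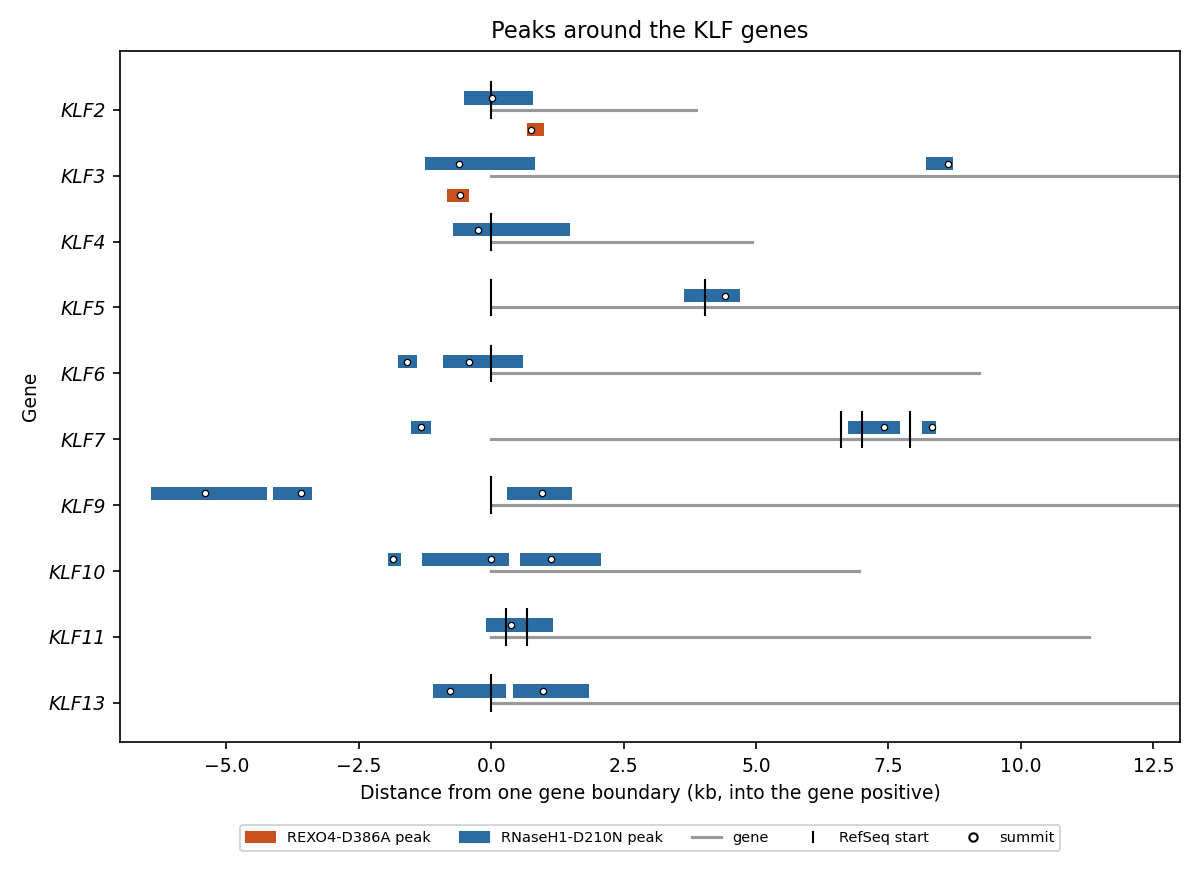
Peaks in the gene and 5 kb around it for each KLF gene, one gene per row, with bars for peaks, white points for summits, grey lines for genes and ticks for RefSeq starts. The x axis gives the distance in kb from a gene boundary, the start-side one by strand, or, where no strand was used, the lower one for KLF3 and the upper one for KLF10. The plot shows 21 of the 26 peaks, from 7 kb outside to 13 kb inside, and most wide bars lie across or beside a start.

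Most KLF genes had a wide RNaseH1 peak across or beside a start. Each of the 10 genes had at least 1 RNaseH1 summit within 1 kb of a RefSeq start, counted from the nearest gene boundary for KLF3 and KLF10, for which no strand was used. This held for all 8 of the genes with starts in the promoter table, against 67.6% of 15842 protein-coding genes. Within 500 bp it held for 6 of the 8, without KLF9 and KLF13, against 62.9%, and KLF3 also had no summit that close to its boundary. The summits within 1 kb belonged to 12 of the 24 RNaseH1 peaks, with a median width of 1346 bp (275 to 2213 bp). The other 12 had a median width of 370.5 bp (250 to 2184 bp), and the median of the whole list of 54623 RNaseH1 peaks was 365 bp. At a limit of 900 bp, set after the widths were seen, 11 of the 12 peaks near a start were wider, as were 2 of the 12 others. Over all genes, 36.4% of the 11905 RNaseH1 peaks with a summit within 1 kb of a protein-coding start were wider, with a median width of 746 bp, and 12.5% of the whole list. Fold enrichment, the fragments at the summit over those expected there, did not follow this split. Its median was 3.08 near starts (2.64 to 7.19) and 3.20 farther away (2.04 to 5.23), against 3.02 for the peaks near any protein-coding start and 3.07 over the list. The expected pileup did, with a median of 23.8 fragments near starts and 8.41 farther away, so the peaks near starts rested on more fragments (median 95 against 27). The part of this local background in the widths was not tested.

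**Figure D2:**
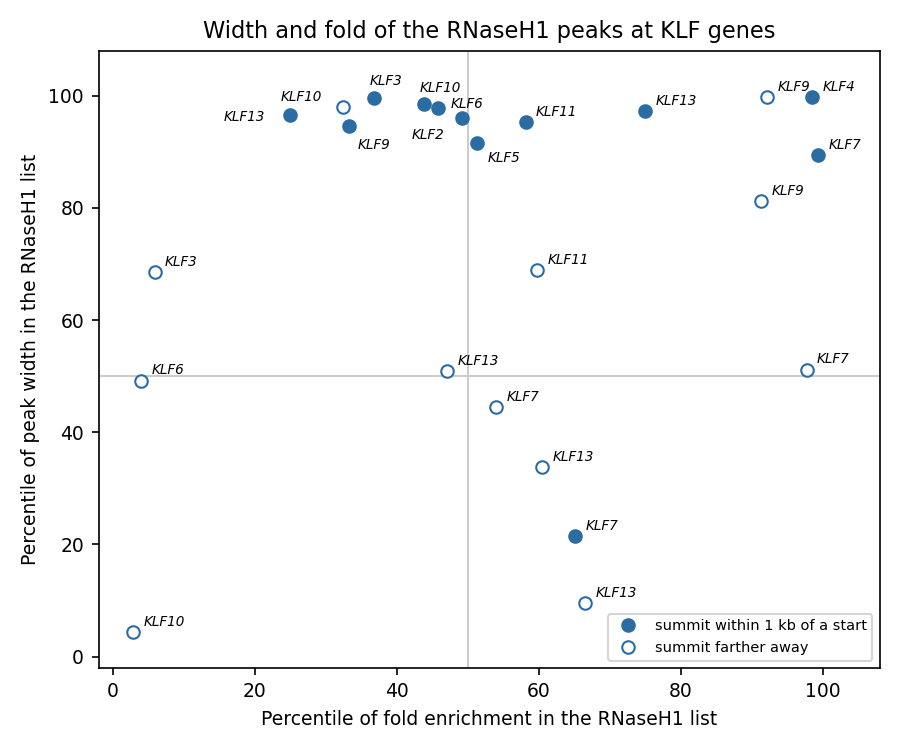
Each point is an RNaseH1 peak in a KLF window, placed by the percentile of its fold enrichment (x axis) and of its width (y axis) among all 54623 RNaseH1 peaks. Filled points have a summit within 1 kb of a start, and all but the KLF7 peak of 275 bp lie above the percentile of 89 in width, while their fold percentiles run from 25 to 99.4.

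Among the activators, KLF2 encodes a factor that keeps endothelial cells quiescent under shear stress and T cells naive. It is a short gene of 3860 bp (chr19:16324826-16328685). Its single RNaseH1 peak (chr19:16324305-16325621) was 1317 bp wide, with a summit 14 bp inside the gene from its start. The fold was 3.06 (95% exact Poisson interval 2.52 to 3.67, counting error only), from 113 fragments against an expected 36.3. That is the middle of the RNaseH1 list, at percentile 49.2 by fold, but percentile 89.9 by q. The REXO4 peak (chr19:16325500-16325826) was 327 bp wide and had its summit 757 bp into the gene. Its fold was 1.93 (1.58 to 2.34), from 102 fragments against 52.3, at percentile 28.5 of the 1460 REXO4 peaks, with a q of 4.67e-06. The peaks of both proteins overlapped in part: they shared 122 bp, which is 37.3% of the REXO4 peak and 9.26% of the RNaseH1 peak. The REXO4 summit lay in the shared stretch and the RNaseH1 summit outside it, 743 bp away. The lncRNA gene KLF2-DT starts 156 bp away on the other strand, and the RNaseH1 peak covered the starts of both genes.

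**Figure D3:**
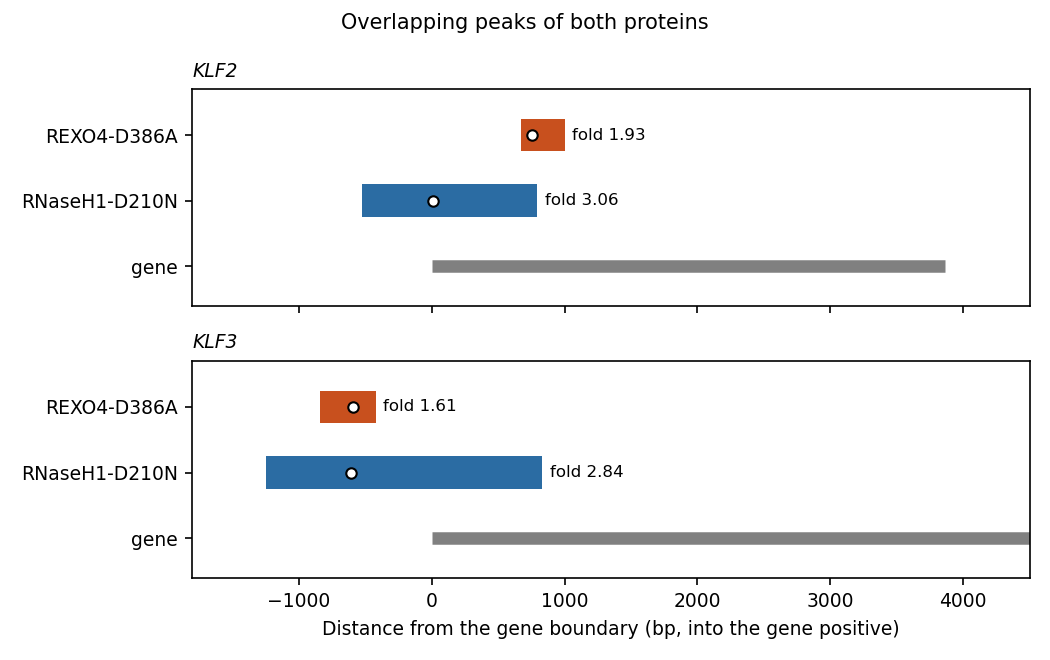
REXO4 (orange) and RNaseH1 (blue) peaks at the start of KLF2 and at the lower boundary of KLF3, with white points for summits, the authors' fold beside each bar and the distance from the boundary in bp on the x axis. The peaks share 122 bp at KLF2, with summits 743 bp apart, and at KLF3 the REXO4 peak lies wholly inside the RNaseH1 peak, with summits 15 bp apart.

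By the pair of fold percentiles, each within its own list, the protein-coding genes most like KLF2 were ACER3, DNMBP and ATRNL1. They came from 964 other genes with overlapping peaks, and their distances from KLF2 were 0.831, 1.43 and 2.21 percentile points. At ACER3 the REXO4 fold was 1.94 and the RNaseH1 fold 3.07.

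KLF3 encodes a CtBP-recruiting repressor with roles in fat and blood cells. Its REXO4 peak (chr4:38663359-38663777) was 419 bp wide and all of it lay inside the RNaseH1 peak (chr4:38662951-38665028), which was 2078 bp wide. The summits were 15 bp apart, 588 bp and 603 bp outside the lower boundary of the gene (chr4:38664199-38701517) and inside the antisense lncRNA gene KLF3-AS1. The REXO4 fold was low, 1.61 (1.33 to 1.94), from 111 fragments against 68.5, at percentile 8.01 of the list and with a q of 0.00392. The RNaseH1 fold was 2.84 (2.33 to 3.43), from 105 fragments against 36.3. A further RNaseH1 peak of 513 bp lay 8634 bp inside the gene, with a fold of 2.19 (1.41 to 3.26) and a q of 0.0202, the weakest q of the KLF peaks. The overlap of both proteins was thus tighter at KLF3 than at KLF2, while the REXO4 peak was weaker by fold and by q. The intervals of the REXO4 folds overlapped.

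KLF4, a reprogramming factor that also restrains the cell cycle in epithelia, had 1 RNaseH1 peak of 2213 bp (chr9:107488281-107490493), the widest of the 24. Its summit lay 256 bp before the start of the gene (chr9:107484852-107489769). The fold was 5.59 (4.60 to 6.72), from 111 fragments against 19.05, at percentile 98.5 of the list. This interval did not overlap that of KLF2, whose peak had nearly the same number of fragments over a higher expected pileup. The intervals hold the expected pileup fixed, so they carry no error of the value in which these peaks mainly differ.

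KLF7, an activator known from developing neurons, had the RNaseH1 peak of highest fold among the 10 genes and 4 RNaseH1 peaks in all. The gene spans 99.7 kb (chr2:207074137-207173851) and the promoter table gives it 4 starts. The strongest peak (chr2:207166138-207167107) was 970 bp wide, with a fold of 7.19 (6.11 to 8.40) from 156 fragments against 20.8, at percentile 99.4. It covered the start at 207166856 and reached the promoter window of that at 207165948, and its summit lay in the hairpin of MIR7845, a microRNA gene on the other strand. The peak also held the mature product of that gene, printed here with its seed (bases 2 to 8) in capitals.
hsa-miR-7845-5p: aAGGGACAgggagggucgugg

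The other KLF7 peaks were narrower. A peak of 275 bp lay 414 bp downstream of the start at 207165948, with a fold of 3.34 (2.02 to 5.24). Another of 340 bp lay 10013 bp downstream of a start, with a fold of 3.14 (1.93 to 4.86). A peak of 371 bp lay 1319 bp outside the upper gene boundary, with a fold of 5.23 (3.48 to 7.57) from only 26 fragments against 4.17. The fold of this outer peak was at percentile 97.7, and its interval overlapped that of the strongest KLF7 peak.

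KLF5, which drives proliferation in gut and other epithelia, had 1 RNaseH1 peak, and it lay at the internal start. The gene (chr13:73054976-73077538) has starts at 73054976 and 73059005. The peak (chr13:73058623-73059682) was 1060 bp wide, with its summit 390 bp downstream of the internal start. Its fold was 3.10 (2.48 to 3.82), from 85 fragments against 26.8. No peak of either list touched the window of the upstream start.

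KLF6, an early response gene described as a tumour suppressor, had a peak of 1522 bp with its summit 417 bp before its start (chr10:3784600-3786121). The fold was 2.995 (2.50 to 3.56), from 125 fragments against 41.1. A narrow peak of 361 bp, 1587 bp before the start, had a fold of 2.11 (1.45 to 2.98). By fold KLF6 thus stood with KLF2 and KLF5, in the middle of the list, with overlapping intervals.

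The SIN3A-recruiting repressors had folds between percentiles 25 and 75 of the list within 1 kb of their starts, or of a boundary for KLF10. Taken in the same way, so did KLF2, KLF3, KLF5 and KLF6, so this does not set the group apart. KLF9, a gene induced by glucocorticoid and thyroid hormone, had no peak over its own promoter window. Its nearest peak (chr9:70413128-70414349) was 1222 bp wide, with a summit 957 bp downstream of the start and a fold of 2.78 (2.12 to 3.58). This peak covered the start of the lncRNA gene KLF9-DT, on the other strand,, 467 bp from that of KLF9. The stronger KLF9 peaks lay upstream, inside KLF9-DT, with summits 3586 and 5403 bp before the start of KLF9. They were 725 and 2184 bp wide, with folds of 4.29 (3.08 to 5.82) and 4.33 (3.40 to 5.45), at percentiles 91.3 and 92.1. The second reached past the 5 kb limit of the window.

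KLF10, a gene induced early by TGF-β, had a wide RNaseH1 peak over its upper boundary and another just inside it (102648784 to 102655725 on its chromosome). The peak over the boundary, of 1632 bp, had its summit 2 bp inside that boundary, with a fold of 2.96 (2.46 to 3.53) from 120 fragments against 39.9. The other, of 1545 bp, had its summit 1121 bp into the gene, with a fold of 2.77 (2.31 to 3.29). A narrow peak of 250 bp lay 1857 bp outside, in the lncRNA gene LOC101927245, with a fold of 2.04 (1.38 to 2.92), the lowest of the 24 peaks. The intervals of the wide KLF10 peaks overlapped.

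KLF11, a close relative of KLF10 linked to insulin regulation, had a peak of 1269 bp over both of its starts (chr2:10043453-10044721). Its fold was 3.22 (2.50 to 4.09), from 65 fragments against 19.5. The other peak in its window, of 517 bp and with a fold of 3.27 (2.24 to 4.62), had its summit inside the neighbouring gene CYS1. The KLF11 gene itself thus had 1 peak.

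KLF13, which regulates the chemokine gene CCL5 in T cells, had 5 RNaseH1 peaks in its window, the most of the 10 genes. It is also the longest of these genes, at 109 kb (chr15:31326835-31435665). Wide peaks of 1375 and 1440 bp flanked its start, with summits 781 bp before and 981 bp after it. Their folds were 2.64 (2.09 to 3.29) and 3.60 (2.58 to 4.89), with overlapping intervals. The remaining 3 peaks were 252 to 370 bp wide and lay 70524 to 113541 bp from the start, at folds of 3.02 to 3.39, each from 12 to 20 fragments. The farthest had its summit 4711 bp outside the gene.

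**Figure D4:**
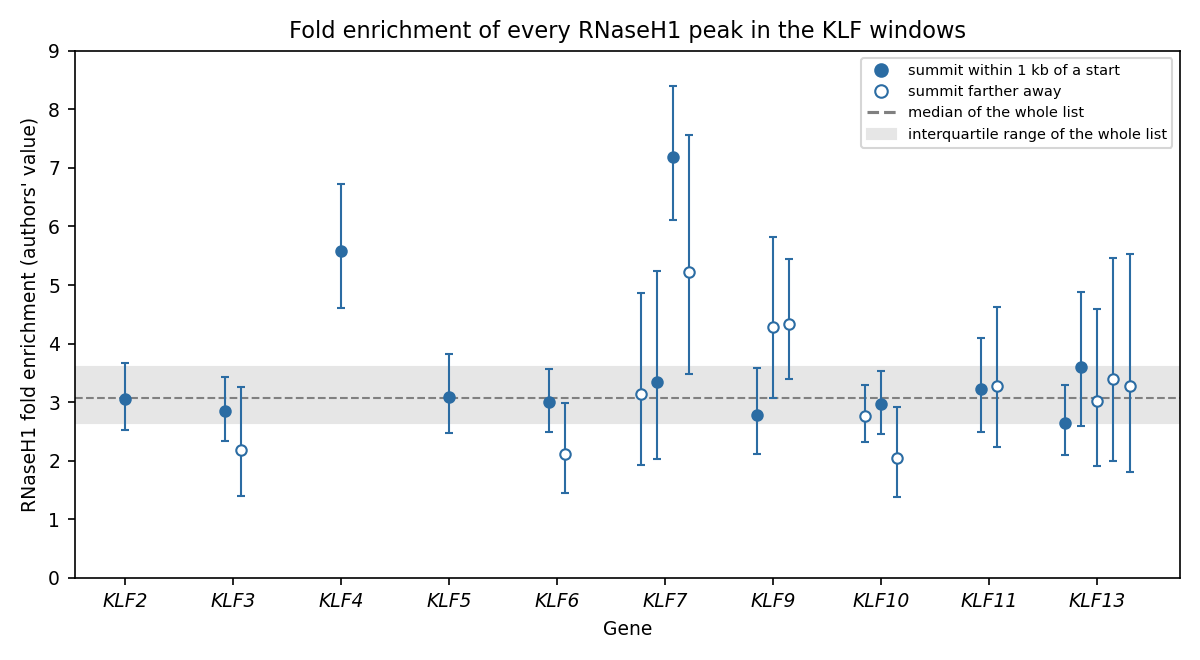
Authors' fold enrichment of each of the 24 RNaseH1 peaks by gene, with bars for the exact Poisson 95% interval (counting error only). Filled points are summits within 1 kb of a start, the dashed line is the list median of 3.07 and the grey band its interquartile range of 2.64 to 3.60. KLF4 and the strongest KLF7 peak stand above the band with their whole intervals, and most other points lie in or near it.

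Ordered by the highest RNaseH1 fold, KLF7 (7.19) came before KLF4 (5.59), KLF9 (4.33), KLF13 (3.60), KLF11 (3.27), KLF5 (3.10), KLF2 (3.06), KLF6 (2.995), KLF10 (2.96) and KLF3 (2.84). Neighbours in this order had overlapping counting intervals throughout. The median over the 10 genes was 3.18, against 3.52 over all protein-coding genes with a peak (interquartile range 3.04 to 4.08). Of the 10 genes, 4 lay above that median and 3 above the upper quartile. For the 8 genes with starts in the promoter table, the peak of highest fold had its summit within 1 kb of a start in 6. Over all 13118 protein-coding genes with such starts and a peak, this share was 49.5%.

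GC content separated the KLF promoter windows with an RNaseH1 peak from those without. The promoter table held 13 windows of 8 KLF genes, with none for KLF3 and KLF10. An RNaseH1 peak overlapped 9 windows, which were 56.7 to 80.7% GC with a median of 71.3%. The 4 windows without a peak were 32.7 to 43% GC: the KLF9 window, the upstream KLF5 window and 2 of the 4 KLF7 windows. The groups did not overlap in GC content. The windows are not independent, since a single peak overlapped both KLF11 windows and another overlapped 2 KLF7 windows. A KLF7 window without a peak begins at 207167197, just past the end of the strongest KLF7 peak at 207167107. At KLF5 the upstream window was 40.7% GC with 4 CpG dinucleotides and no GC box, and the internal one 71.3% GC with 37 CpG dinucleotides and 2 GC boxes. The KLF2 window had the highest GC content, 80.7%, at percentile 97.7 of all windows, with 49 CpG dinucleotides and 6 GC boxes.

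The same relation held over all 22198 promoter windows of protein-coding genes. An RNaseH1 peak overlapped 3.11% of windows under 45% GC and 82.6% of those from 65 to 75% GC. At 75% GC or more the share was 86.0%. A REXO4 peak overlapped 0.0362% of windows under 45% GC and 11.8% of those at 75% GC or more. No KLF promoter window was overlapped by a REXO4 peak, the one at KLF2 lying downstream of it. Nothing is read from this, since the share over all windows was at most 11.8% in any range of GC content. By gene, an RNaseH1 peak overlapped a promoter window at 7 of the 8 KLF genes, against 64% of 15842 protein-coding genes in the table. A summit lay in such a window at 1 of 8, KLF2, against 22.3%. The part of base composition in sequencing or mapping in these shares was not tested.

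**Figure D5:**
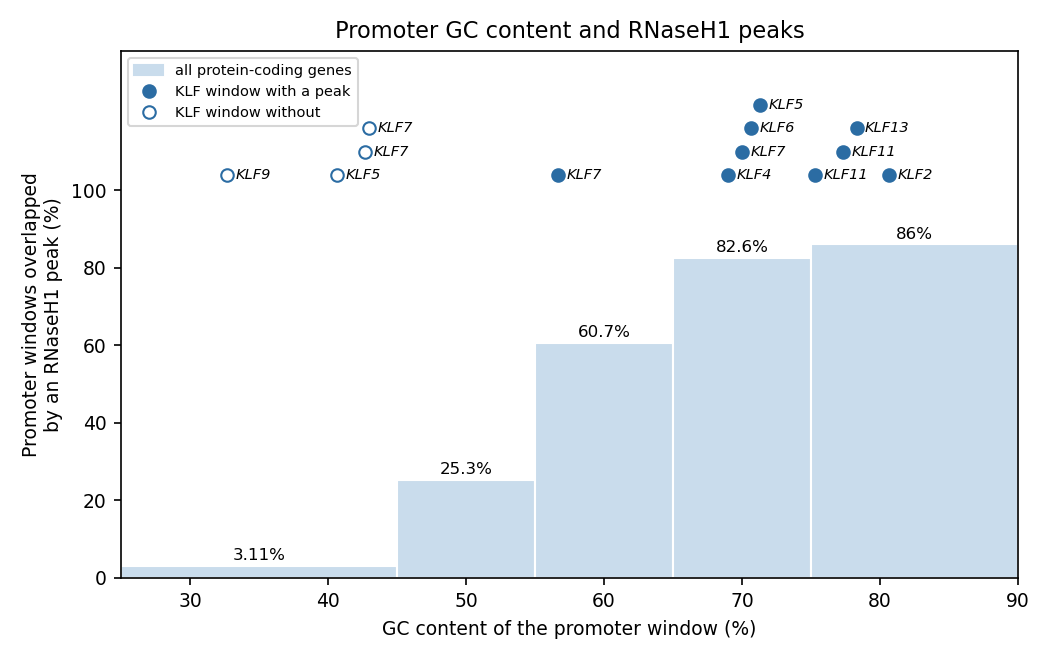
Bars give the share of promoter windows of protein-coding genes overlapped by an RNaseH1 peak (y axis, %) in 5 bins of GC content (x axis, %; the outer bins also hold windows beyond the plotted range). Points above the bars mark the GC content of the 13 KLF windows, filled where a peak overlaps, and their height has no meaning. All open points lie at 43% GC or less and all filled ones at 56.7% or more.

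Motifs were searched on both strands, and a match says only that the letters are present. GGGCGG, a GC box, was in 8 of the 13 KLF windows, all with an RNaseH1 peak, and in 56.3% of all windows. Those 8 windows were 69 to 80.7% GC. Of all windows, 82.6% at 65 to 75% GC and 86.0% at 75% GC or more had a peak. The share of all GC box windows with a peak is not given here, so nothing is read from the 8. The CACCC box with the letters CCACCC was in 2 KLF windows and in 37.7% of all windows. The longer form CACACCC was found in none of the KLF windows and in 7.96% of all. The letters CCAAT were in 6 KLF windows (34.7% of all windows), and the TATA motif TATAAA was in 1, the upstream KLF5 window (9.47% of all). GC skew, the excess of G over C on the gene's strand, was positive in 6 of the 9 windows with a peak. It was highest there at the KLF7 start at 207165948 (0.365) and at KLF6 (0.330), and slightly negative at KLF2 (-0.0248). In the 4 windows without a peak it was 0.395 at the KLF7 start at 207134137, the highest of the 13, and 0.184 at KLF9. At the KLF7 start at 207167246 it was 0, and at the upstream KLF5 start -0.164. Over all windows with an RNaseH1 peak, 55.1% had a positive skew, against 54.8% of all windows.

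Of 8 other KLF genes, 7 had an RNaseH1 peak and KLF18 had none. The median of the highest fold was 3.18 in the 10 genes and 4.64 in these 7, a difference that was not tested. Their highest folds were at KLF8 (5.03), KLF17 (4.78), KLF16 (4.76) and KLF15 (4.64). From the nearest start, or boundary where no strand was used, these summits lay at 60, -26560, -760 and 1371 bp, in that order. KLF8 (383 kb) and KLF12 (620 kb) are longer than any of the 10 genes, and the medians are not matched for length. KLF14 and KLF16 also had a REXO4 peak inside an RNaseH1 peak. At KLF14 the REXO4 fold was 2.40 (1.97 to 2.90), with summits 55 bp apart, and its interval overlapped that of KLF2. At KLF16 it was 2.02 (1.70 to 2.39), with summits 688 bp apart. The RNaseH1 peak there had a fold of only 1.91 (1.51 to 2.38), at percentile 1.18 of its list. The KLF16 fold of 4.76 belongs to another peak. The 9 SP genes, the nearest relatives of the KLF family, all had an RNaseH1 peak, and SP3 had an overlapping REXO4 peak. Over all protein-coding genes, 82.1% had an RNaseH1 peak and 4.86% overlapping peaks of both lists.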

How the data were processed

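Flag ChIP-seq of 12 U2OS libraries underlies 2 peak lists. The submitters' processing notes name MACS2 2.1.0.20150731 and build hg38, besides deepTools 3.5.1, SAMtools 1.17, Cufflinks, HISAT2 2.2.1 and Trim Galore 0.6.10. For the control, threshold and pooling, nothing was given in the sources used here. Peak names carry the label ChIPseq2 and no condition, and the depth of the libraries is unknown. The fold enrichment of each peak, its −log10 p and −log10 q are the authors' deposited values. The deposited peak score was not used. Folds were compared only within a list.

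The KLF genes and all gene lists were chosen with earlier results of these data known. Named were all listed genes, the 3 genes most like KLF2 and up to 4 genes of highest fold per related list. Gene positions and promoter windows came from RefSeq tables (GRCh38.p14), which matched 10 and 8 of the genes. For each peak, the fragment count is the whole number that gives both the deposited p, as a Poisson tail, and the fold, as (fragments + 1)/(expected + 1). For the KLF peaks the result lay within 0.05 fragments of a whole number. This was checked on simulated data. Intervals are exact Poisson intervals of the fragments at 95%, hold the expected pileup fixed and leave out variation between libraries. Percentiles are ranks within a list. Alternatives for window, threshold and overlap were computed. No test was planned or run. Scripts ran in Python 3.11.15 with SciPy 1.17.1, NumPy 2.4.6, matplotlib 3.10.9 and pandas 2.3.3.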

Additional observations from a re-analysis of the deposited data

How the results depend on the processing

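The count of 10 KLF genes with an RNaseH1 peak was the same with windows of 0, 1 and 10 kb, at a q of 0.05 or 1e-05 or less, and by summit. The 24 RNaseH1 peaks became 17 with windows of 0 or 1 kb, 28 with 10 kb and 16 at a q of 1e-05 or less. KLF3 lost its REXO4 peak with a window of 0 kb and at a q of 1e-05 or less, which left 1 gene with a REXO4 peak and 1 with overlapping peaks under each of these settings. Overlapping peaks also fell to 1 gene when 50% of the REXO4 peak had to be covered, and to 1 when the summits had to lie within 200 bp. KLF2 is the gene lost under both of these. Peaks with a summit within 1 kb of a start numbered 12, against 8 at 500 bp (7 genes, without KLF3, KLF9 and KLF13), 15 at 2 kb, 11 at the stricter q and 10 without KLF3 and KLF10, a setting added after seeing the data. The median highest fold of 3.18 was 3.08 for the peak of lowest q or with a window of 0 kb, and 3.69 with 10 kb. The share of protein-coding genes with an RNaseH1 peak ran from 70.7% at the stricter q to 85.1% with 10 kb, and that with a REXO4 peak from 3.16% to 7.01%. No paired analysis was possible because no value per library was analysed, and for the same reason no replicate could be left out. The summit of a peak of 12 to 30 fragments gives a fold known only within wide limits.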

Other observations

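Genes that act with the KLF proteins were also read from the same windows. Over all protein-coding genes, 82.1% had an RNaseH1 peak and 6.16% a REXO4 peak, shares that are not matched for gene length. All 6 upstream kinase and MEF2 genes had an RNaseH1 peak, led by MEF2D (4.96), MEF2C (4.18), MEF2A (4.13) and MEF2B (3.89), transcription factors of which some act upstream of KLF2 and KLF4, and 0 had a REXO4 peak. Of 10 corepressor and coactivator genes, all had an RNaseH1 peak, led by the deacetylase gene HDAC1 (6.43). In 4 of them, CTBP1, SIN3A, CREBBP and KAT2B, a REXO4 peak overlapped an RNaseH1 peak, against 4.86% of all protein-coding genes. CTBP1 and SIN3A encode partners of KLF3 and of the KLF9 to KLF13 repressors. This list was not chosen independently of earlier results, and the share was not tested. All 4 ubiquitin ligase genes had an RNaseH1 peak and none a REXO4 peak, with WWP1 (4.47), a ligase of KLF2 and KLF5, the highest. All 7 genes listed as targets had an RNaseH1 peak, led by CCND1 (5.04), SMAD7 (4.20), CDKN1A (4.04) and NOS3 (3.82), and SMAD7, an inhibitor of TGF-β signalling, had an overlapping REXO4 peak. Many of these peaks are not at promoters. From the nearest start, or boundary where no strand was used, summits lay at -14799 bp (MEF2D), -69 bp (MEF2C), -26 bp (MEF2A) and 24258 bp (MEF2B). They lay at 149 bp for HDAC1, 137 bp for WWP1, 4387 bp for CCND1, 736 bp for SMAD7, 102 bp for CDKN1A and 24516 bp for NOS3.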
